A study of Sus scrofa with 40 samples.

Results

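The genes described are 9 components of oocyte-to-follicle signalling, taken by symbol as they are spelled in both deposited count tables: the growth factor genes GDF9, BMP15, BMP6 and INHBA, the oocyte-secreted protein gene OOSP2, and the receptor genes KIT, BMPR2, BMPR1A and TGFBR1. All 9 were found, of 38794 rows that name a gene, and all 9 passed the low-count filter in pools and in the summed single oocytes. The study sequenced RNA of mature oocytes from pigs (Sus scrofa), arrested at metaphase II until fertilisation, and asked how oocytes deficient in mitochondrial DNA (mtDNA) differ from those with a normal amount. There were 14 mtDNA-deficient and 15 mtDNA-normal libraries that each held 1 oocyte, and 5 deficient and 6 normal libraries of pooled oocytes. The animals were hybrids of the breeds Large White, Duroc and Berkshire, and the labels name no treatment or engineered allele for any group. The mtDNA states are those the submitters assigned. Titles mark every deficient single oocyte BCBneg and every normal one BCBpos, and the pools neg or pos in the same way. The labels do not spell out BCB, which in work on oocytes commonly stands for brilliant cresyl blue, a stain used to sort them. They also give neither an mtDNA measurement, nor the number of oocytes in a pool, nor the animals.

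Growth factors of the TGF-beta superfamily are made as precursor chains that pair, are cut, and are secreted. They bind a type II receptor, which activates a type I receptor, and the type I receptor phosphorylates SMAD proteins that enter the nucleus. GDF9 and BMP15 are the factors that the mammalian oocyte is best known for: they act on the surrounding cumulus and granulosa cells and can pair with each other. KIT runs the other way, since the oocyte carries this receptor and granulosa cells supply its ligand.

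Levels are given in CPM, counts relative to the library total, scaled by TMM, a method that adjusts library totals for their composition. The pools and the single oocytes were scaled separately, so their levels are set side by side only as values within each table. Single oocytes held 706929 to 3067523 counts and pools 14480546 to 29538982. All 12 of 12 oocyte markers had counts in both tables, with a summed level of 5252 to 7372 CPM in deficient pools and 4800 to 6443 CPM in normal pools. Of 17 cumulus and granulosa markers found, 3 were at 0 in all single oocytes and 6 in all pools. Their summed level was 43.7 to 137 CPM in deficient pools and 56.5 to 121 CPM in normal pools, most of it from the matrix gene VCAN, and the hormone subunit gene INHA had no count in any pool. Deficient pools had 14207 to 18456 genes detected and normal pools 15057 to 19245, and the share of the ribosomal RNA row RN18S was 0.177% to 0.441% in deficient pools and 0.175% to 1.30% in normal pools. Genes detected averaged 13122 in deficient and 12479 in normal single oocytes, and the RN18S share 3.89% and 2.92%. The most abundant row there, LOC102158401, averaged 58.5 ± 6.71% of counts in deficient and 64.2 ± 5.20% in normal single oocytes (SD). The part of cumulus cells in the values below was not tested, and in pools fewer cells of a type and less RNA per cell cannot be told apart.

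Between the states, none of the 9 genes passed the test in either library type. In pools 0 of the 9 were called, against a background of 0% of 13540 genes tested (edgeR's quasi-likelihood test with Benjamini-Hochberg adjustment, threshold 0.05). In single oocytes, summed into 4 deficient and 3 normal sums, 0 of the 9 were called, against 0% of 11964 genes. At an unadjusted p under 0.05 the test took 726 genes in pools and 231 in the sums, and among the 9 only TGFBR1 in pools. The deficient-minus-normal log2 difference was above 0 for 7 of the 9 genes in pools (median 0.12) and for 5 of the 9 in the sums (median 0.06). Over all genes tested the median was -0.00193 in pools. Below, each gene's levels come first and its log2 difference after them, as deficient minus normal with its standard error.

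GDF9, which drives follicle growth and cumulus expansion, stood at 1933, 1327, 1173, 2613 and 1311 CPM in the deficient pools A1, A2, A3, B2 and B4. In the normal pools A2, A3, A4, B1, B2 and B4 it stood at 1966, 1122, 1235, 948, 2303 and 1650 CPM. The ranges overlapped almost fully, and the highest pool of each state was the one named B2. Between the states the log2 difference was 0.12 ± 0.27 (SE, 5 against 6 pools, 95% interval -0.46 to 0.70, adjusted p = 0.964 by edgeR's quasi-likelihood test). In single oocytes GDF9 had a median of 454 CPM, from 229 to 659, in 14 deficient oocytes and a median of 465.7 CPM, from 338 to 665, in 15 normal oocytes. The difference of the sums was -0.06 ± 0.18, with an interval of -0.44 to 0.33.

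BMP15, the closest relative of GDF9 and likewise made mainly by the oocyte, varied more between pools. It stood at 3457, 1182, 1111, 4070 and 1820 CPM in the same deficient pools, and at 2239, 934, 1536, 898, 3876 and 2400 CPM in the normal pools. Each state held both low and high pools, and the coefficient of variation was 58.3% in deficient and 56.7% in normal pools. The states differed by 0.23 ± 0.42, with a 95% interval of -0.65 to 1.11 (adjusted p = 0.956). In single oocytes BMP15 had a median of 743 CPM, from 435 to 1339, in deficient oocytes and a median of 776 CPM, from 458 to 1130, in normal oocytes. The difference of the sums was -0.00456 ± 0.20, with an interval of -0.43 to 0.42.

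**Figure D1:**
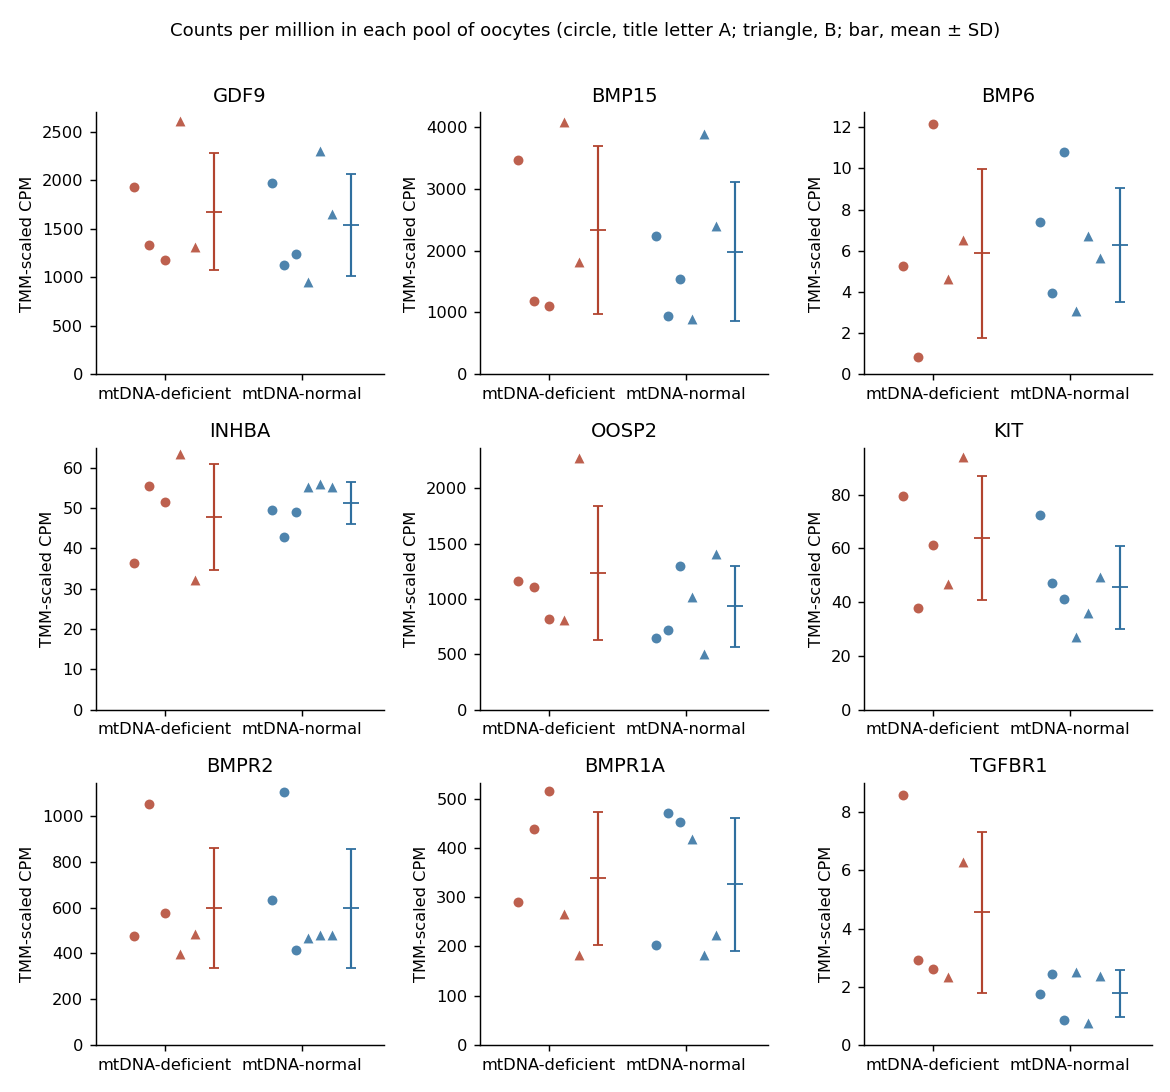
TMM-scaled CPM of each of the 9 genes (vertical axes from 0) in 5 mtDNA-deficient and 6 mtDNA-normal pools, 1 point per pool, with mean and SD. The states overlap in every panel. TGFBR1 shows deficient pools A1 and B4, at 8.60 and 6.30 CPM, far above all 6 normal pools. Deficient pools A2 and A3, at 2.91 and 2.60 CPM, lie just above the highest normal pool, at 2.52 CPM.

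The levels of GDF9 and BMP15 moved together across libraries. Over the 11 pools, Pearson's r of their log2 CPM was 0.950 (permutation p = 1e-05, the smallest that 100000 resamples can give; adjusted p = 0.000360 over 36 pairs of the 9 genes) and Spearman's rho was 0.945 (permutation p = 6e-05; adjusted p = 0.00216). Without the 2 pools farthest from the median GDF9 level, r was 0.912, and within the 6 pools whose name begins with A it was 0.916. The 5 pools whose name begins with B are too few for a value of their own. None of the other 35 pairs passed after adjustment. Over the 29 single oocytes r was 0.763, given without a test: 0.863 in 14 deficient and 0.587 in 15 normal oocytes. By the 2 dates in the column names it was 0.728 on 22 September (12 oocytes) and 0.782 on 17 September (17 oocytes). In pools both genes also ran with the number of genes detected (r = 0.612 for GDF9 and 0.678 for BMP15) and with the share of RN18S (0.632 and 0.666). BMPR2 and BMPR1A ran against both measures, at -0.736 and -0.607 with genes detected and at -0.388 and -0.635 with RN18S. None of the 18 relations of a member with a library measure passed after adjustment (adjusted permutation p of at least 0.122). The relation of BMPR2 with genes detected rests on 2 pools, since leaving out the pair at the greatest distance from the median of that measure left r at -0.0358.

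**Figure D2:**
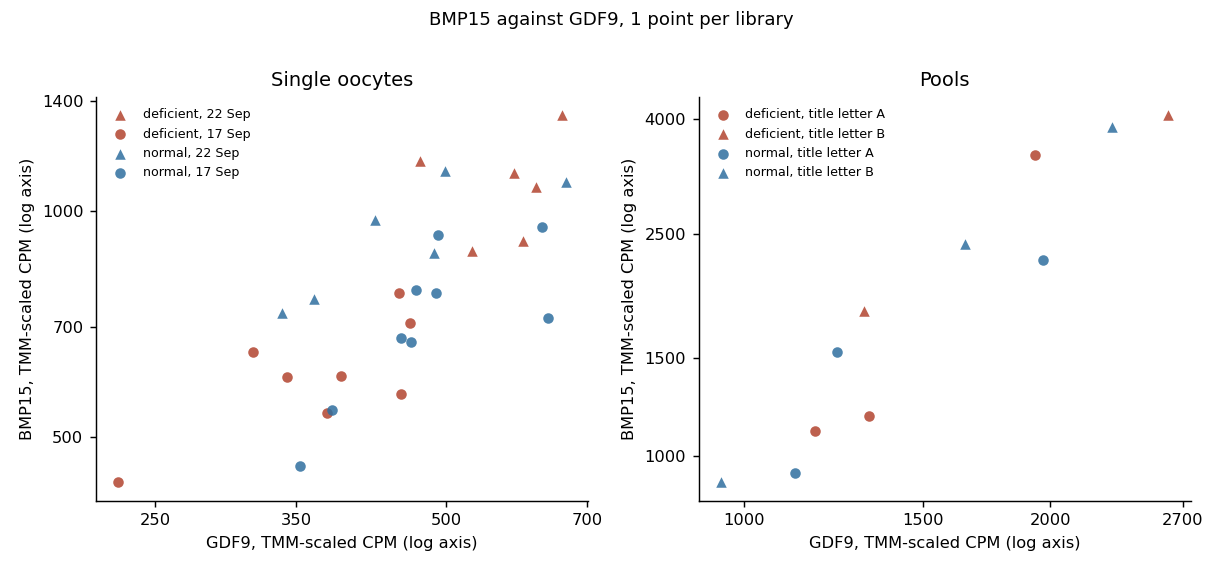
BMP15 against GDF9 in TMM-scaled CPM, both axes logarithmic, with single oocytes in the left panel and pools in the right, 1 point per library. Deficient and normal libraries lie along 1 band in each panel, with r of 0.763 over 29 oocytes and 0.950 over 11 pools.

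The ratio of BMP15 to GDF9 counts, which needs no scaling between libraries, averaged 1.31 ± 0.39 in deficient pools and 1.22 ± 0.32 in normal pools (SD, n = 5 and 6). It ran from 0.891 to 1.79 in deficient and from 0.833 to 1.68 in normal pools. The log2 ratio differed by 0.10 (two-sided exact permutation test, p = 0.686 over 462 splits, of which the smallest possible p is 0.00216). In the sums it averaged 1.76 ± 0.25 over 4 deficient and 1.74 ± 0.41 over 3 normal sums, a log2 difference of 0.03 (two-sided exact permutation test, p = 0.857 over 35 splits, smallest possible p 0.0286). The ratio is of counts, not per transcript length, so it orders libraries and not the genes' abundance. Each of the 29 single oocytes had more BMP15 than GDF9 counts, with ratios of 1.13 to 2.47. In 4 of the 11 pools BMP15 had fewer counts than GDF9: the deficient pools A2 and A3, at 0.891 and 0.947, and the normal pools A3 and B1, at 0.833 and 0.947.

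BMP6, a bone morphogenetic protein made by oocytes and granulosa cells, had few counts in pools. It stood at 5.26, 0.82, 12.2, 4.62 and 6.51 CPM in the deficient pools A1, A2, A3, B2 and B4, against 7.39, 3.96, 10.8, 3.10, 6.73 and 5.65 CPM in the normal pools A2, A3, A4, B1, B2 and B4. The deficient pools held both the lowest and the highest value. The lowest rested on 9 counts. BMP6 differed between the states by -0.09 ± 0.52 in pools and 0.06 ± 0.25 in the sums. In single oocytes BMP6 had a median of 41.2 CPM, from 26.2 to 99.9, in deficient oocytes and a median of 49.3 CPM, from 9.12 to 78.2, in normal oocytes.

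INHBA, whose product is the beta-A chain shared by activin A and inhibin A, stood at 36.3, 55.5, 51.4, 63.4 and 32.2 CPM in deficient pools and at 49.4, 42.9, 49.0, 55.2, 55.9 and 55.2 CPM in normal pools. The 6 normal pools lay inside the range of the deficient ones. The SD was 13.1 CPM in deficient, against 5.14 CPM in normal pools, and the log2 difference was -0.10 ± 0.21. The inhibin alpha chain gene INHA had no count in any pool and 1 count over all 29 oocytes, against 3 to 56 counts of INHBA in each oocyte. In single oocytes INHBA had a median of 16.8 CPM, from 3.84 to 29.3, in deficient oocytes and a median of 14.2 CPM, from 1.71 to 26.97, in normal oocytes. The sums stood at 11.9, 15.2, 19.7 and 14.7 CPM for the deficient numbers 1 to 4 and at 14.97, 12.5 and 12.4 CPM for the normal numbers 2 to 4. INHBA was higher in the deficient sum for each of the 3 shared numbers, as were KIT and TGFBR1, against 12.4% of 11964 genes, and BMPR1A was lower each time, against 12.8%. The log2 difference of the sums was 0.22 ± 0.32, above 0 under all 17 alternatives tried (0.078 to 0.39), and none passed.

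OOSP2, which encodes a small secreted protein of oocytes whose action is little known, had its highest level in the deficient pool B4. Deficient pools stood at 1164, 1111, 823, 808 and 2278 CPM and normal pools at 649, 719, 1302, 1017, 506 and 1404 CPM. Within the 4 pool names that both states share (A2, A3, B2 and B4), the deficient pool was higher each time, by 0.78, 0.20, 0.68 and 0.70 on the log2 scale, although the labels do not say that equal names mark paired pools. Of all genes tested, 7.98% were higher in the deficient pool all 4 times and 9.65% lower, and TGFBR1 was the other member higher all 4 times. The log2 difference over all pools was 0.41 ± 0.32, with an interval of -0.26 to 1.08 (adjusted p = 0.921). In single oocytes the sign was the other way. The deficient sums 1, 2, 3 and 4 stood at 24.2, 57.4, 32.5 and 34.1 CPM and the normal sums 2, 3 and 4 at 49.8, 47.0 and 41.5 CPM. Deficient sum 2 was above every normal sum and the other 3 were below every one. The log2 difference of the sums was -0.33 ± 0.27, and with each oocyte as a sample it was -0.35 ± 0.16 (adjusted p = 0.999). The difference between the library types' state effects was -0.76 ± 0.46, with an interval of -1.71 to 0.19 (adjusted p = 0.915). That test called 0% of 17643 genes and none of the 9.

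KIT, the tyrosine kinase receptor through which granulosa cell ligand acts on the oocyte, stood at 79.6, 37.8, 61.1, 46.8 and 94.1 CPM in deficient pools and at 72.6, 47.0, 41.1, 27.1, 35.8 and 49.5 CPM in normal pools. The 2 highest pools were deficient, A1 and B4, and the 3 lowest included the deficient pool A2. The log2 difference was 0.49 ± 0.28, with an interval of -0.11 to 1.09 (unadjusted p = 0.103, adjusted p = 0.921). It was 0.13 among pools named A and 0.92 among pools named B. Without 1 of the pools in turn it ran from 0.29, without deficient pool B4, to 0.67, without normal pool A2. In the sums KIT stood at 13.2, 22.8, 28.02 and 25.7 CPM for the deficient numbers 1 to 4 and at 7.37, 27.8 and 19.8 CPM for the normal numbers 2 to 4. The difference was 0.29 ± 0.39, and -0.08 without normal sum 2.

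By date, KIT differed in how far the states lay apart. On 22 September the 6 deficient oocytes stood at 15.4 to 40.8 CPM and the 6 normal ones at 6.08 to 14.1 CPM, without overlap. Few counts stand behind this, 19 to 73 in the deficient and 6 to 24 in the normal oocytes. The lowest deficient level rested on 20 counts and the highest normal level on 9, so the gap between them lies within counting error. On 17 September the 8 deficient oocytes stood at 9.60 to 39.7 CPM and the 9 normal ones at 11.97 to 46.4 CPM. Of the genes tested, 0.499% had states that did not overlap on 22 September, and KIT was the 1 member among them. On 17 September 0.0116% did, and none of the members. GDF9 showed a like pattern of means, with 578 ± 67.7 CPM in deficient, against 463 ± 118 CPM in normal oocytes on 22 September and 376 ± 79.1 CPM in deficient oocytes, against 484 ± 96.5 CPM in normal ones, on 17 September. Oocytes of 1 title number may share a source, so state by date was tested on 9 sums by state, number and date, a test chosen after these values were seen. The state difference on 22 September minus that on 17 September was 1.602 ± 0.58 for KIT (adjusted p = 0.999 by edgeR's quasi-likelihood test) and 0.52 ± 0.34 for GDF9 (adjusted p = 0.999). It called 0% of 12911 genes (486 had an unadjusted p below 0.05), and also 0% of 8624 genes with each oocyte as a sample. The 4 normal oocytes of title number 2, all from 22 September, stood at 6.08 to 10.25 CPM of KIT and the 2 deficient ones of that number at 18.9 and 28.98 CPM, so that title number and date cannot be told apart there.

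**Figure D3:**
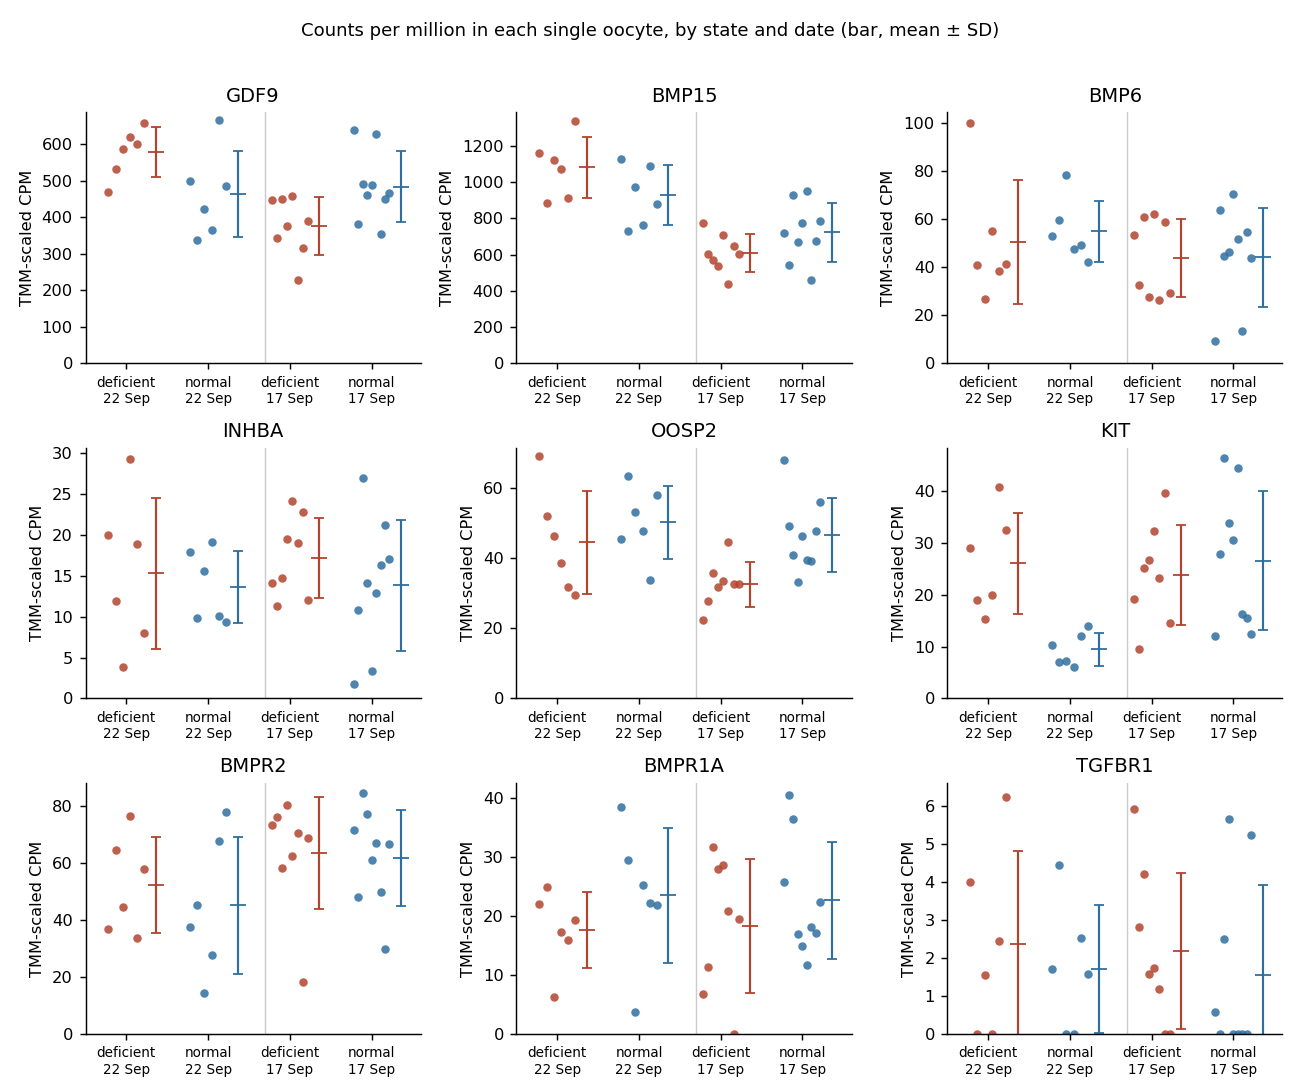
TMM-scaled CPM of the 9 genes (vertical axes from 0) in each single oocyte by mtDNA state and date, with mean and SD, the bars of TGFBR1 reaching 0 or below being cut at the axis. KIT shows the 6 deficient oocytes of 22 September at 15.4 to 40.8 CPM, above the 6 normal ones at 6.08 to 14.1 CPM. The mean of BMP15 is higher on 22 than on 17 September in both states. Its ranges in normal oocytes overlap between the dates, and the difference over 9 sums did not pass (adjusted p = 0.0635 by edgeR's quasi-likelihood test).

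Over both states, BMP15 lay higher on 22 September. It averaged 1082 ± 169 CPM in deficient, against 927 ± 167 CPM in normal oocytes on 22 September, and 610 ± 105 CPM in deficient oocytes, against 723 ± 162 CPM in normal ones, on 17 September. Over the 9 sums, 4 of 22 September and 5 of 17 September, the log2 difference with state as a term was 0.61 ± 0.14 and did not pass (adjusted p = 0.0635). None of the 9 genes was called there, against 0.217% of 12911 genes called higher and 0.178% lower. With each oocyte as a sample, BMP15 was the only one of the 8 members tested that was called (0.58 ± 0.11, adjusted p = 0.000907), against 2.04% of 8624 genes higher and 1.94% lower, but that fit treats oocytes that may share a source as independent. Number 4 is the only title number found on both dates, and date and number cannot be told apart for the rest. Within its 14 oocytes BMP15 had medians of 1098 CPM on 22 September and 602 CPM on 17 September in deficient oocytes, and of 984 CPM and 776 CPM on the same dates in normal ones. With these oocytes as samples, edgeR's test called BMP15 (0.74 ± 0.15, adjusted p = 0.00170) and GDF9 (0.68 ± 0.16, adjusted p = 0.00822) higher on 22 September, against 1.71% of 9786 genes higher and 1.45% lower. That fit, too, treats oocytes that may share a source as independent. The labels do not say that number 4 marks the same source on both dates. Whether the dates mark collection, preparation or sequencing is not stated in the labels.

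Among the receptors, BMPR2, the type II receptor that binds GDF9 and BMP15, stood at 475, 1051, 577, 395 and 483 CPM in deficient pools and at 633, 1105, 413, 467, 479 and 480 CPM in normal pools. One pool of each state, deficient A2 and normal A3, stood far above the others, and the rest lay between 395 and 633 CPM. Those 2 pools also had the fewest genes detected of all pools, 14207 and 15057. BMPR2 differed between the states by 0.000655 ± 0.30, with an interval of -0.63 to 0.63. In single oocytes BMPR2 had a median of 63.7 CPM, from 18.1 to 80.5, in deficient oocytes and a median of 61.2 CPM, from 14.4 to 84.7, in normal oocytes.

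BMPR1A, a type I receptor for bone morphogenetic proteins, stood at 289, 439, 515, 265 and 184 CPM in deficient pools and at 204, 472, 454, 419, 184 and 224 CPM in normal pools. Both states ran from the same lowest level, 184 CPM, upwards, with a highest level of 515 CPM in deficient, against 472 CPM in normal pools. The log2 difference was 0.05 ± 0.32 in pools and -0.35 ± 0.36 in the sums. In single oocytes BMPR1A had a median of 19.3 CPM, from 0 to 31.6, in deficient oocytes and a median of 22.1 CPM, from 3.61 to 40.4, in normal oocytes. The 1 oocyte without a count was deficient, and its depth allows a level of up to 3.61 CPM (3 counts, counting error only).

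TGFBR1, the type I receptor (ALK5) that GDF9 uses in granulosa cells, was the only one of the 9 genes past an unadjusted p of 0.05 in pools. Deficient pools stood at 8.60, 2.91, 2.60, 2.34 and 6.30 CPM and normal pools at 1.76, 2.42, 0.85, 2.52, 0.74 and 2.35 CPM. The deficient pools A1 and B4 stood apart. Deficient A2 and A3 were also above every normal pool, but close to the highest of them, 2.52 CPM. Deficient B2 was below 3 normal pools. The counts behind these values were 32 to 188 in deficient and 24 to 74 in normal pools. The log2 difference was 1.36 ± 0.53, with an interval of 0.23 to 2.496 (unadjusted p = 0.0216, adjusted p = 0.903), and 0.99 without pool A1. In the pools of shared name A2, A3, B2 and B4 the log2 ratio of deficient to normal was 0.72, 0.10, 1.65 and 1.42. The difference was 1.48 among pools named A and 1.21 among pools named B, neither past the threshold.

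In single oocytes TGFBR1 was near the limit of detection. It had 0 counts in 4 of 14 deficient and 7 of 15 normal oocytes, each of which allows a level of up to 1.94 to 3.63 CPM, and at most 14 counts in the others. The deficient sums stood at 3.98, 1.90, 2.25 and 2.08 CPM and the normal sums at 1.56, 1.83 and 1.40 CPM, on 4 to 22 and 7 to 14 counts. All 4 deficient sums were above all 3 normal sums, the only one of the 9 genes for which the groups did not overlap, against 3.97% of 11964 genes. In pools none of the 9 genes had groups that did not overlap, against 0.606% of 13540 genes. The log2 difference of the sums was 0.67 ± 0.76, with an interval of -0.93 to 2.27 (adjusted p = 1.00).

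**Figure D4:**
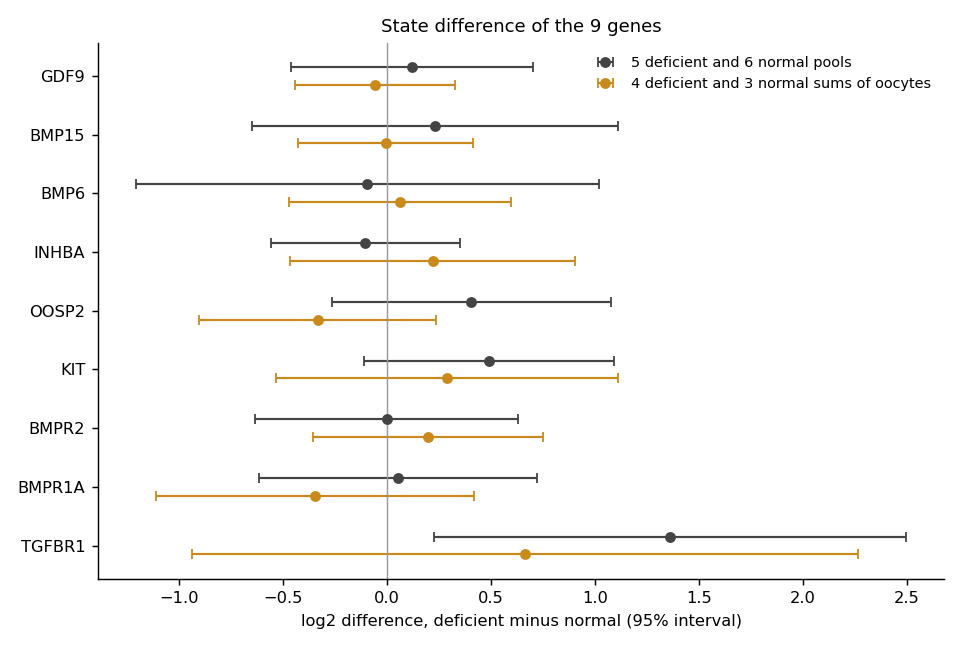
Log2 difference, deficient minus normal, with its 95% interval for each gene, in pools and in sums of single oocytes (edgeR). Every interval includes 0 except that of TGFBR1 in pools, 0.23 to 2.496, whose adjusted p of 0.903 did not pass.

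Where the title numbers were used as a block, on the 3 numbers that both states share, the sums gave 2 called genes in place of 0, or 0.0166% of those tested. None of the 9 genes was among them. KIT then differed by 0.59 ± 0.32 (unadjusted p = 0.080, adjusted p = 0.999) and TGFBR1 by 0.39 ± 0.91.

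The library types differed far more than the states. Kit, extraction and number of cells differ together between them and cannot be told apart, and in single oocytes 1 row, LOC102158401, took 46.7% to 76.0% of the counts, against at most 0.0275% in pools. Of the 9 genes, 1 was higher in single-oocyte sums than in pools, against a background of 35.2% of 17643 genes, and 7 were lower, against 32.5% (edgeR's quasi-likelihood test). The median of the 9 genes was -1.31 on the log2 scale, against 0.13 over all genes. Under library totals alone the split over all genes was 4900 higher and 6745 lower, under RLE size factors 7432 and 4613, and under totals without the rows RN18S and LOC102158401 8782 and 3169, in place of 6218 and 5739. In percent of genes tested these are 27.8% and 38.2%, 42.1% and 26.1%, and 49.8% and 18%. Of the 9 genes 1 was higher and 7 lower under totals, 1 and 5 under RLE, and 2 and 3 without the 2 dominant rows. The median of all genes moved with them, to -0.36, 0.60 and 1.18, so differences are given with that shift beside them.

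OOSP2 differed most among the lower genes, at -4.23 ± 0.28 (adjusted p = 5.09e-12). It was followed by BMPR1A at -3.51 ± 0.30 and BMPR2 at -2.95 ± 0.26. These 3 stayed lower and past the threshold under all 24 settings tried, OOSP2 between -4.75 and -3.17, and their distance from the median of all genes was 2.70 or more each time. Within a library, OOSP2 counts were 0.0447 to 0.195 of GDF9 counts in single oocytes and 0.220 to 1.74 in pools. Those of BMPR2 were 0.0342 to 0.309 of GDF9 counts in single oocytes and 0.151 to 0.985 in pools, which overlap. The ratios of BMP15, INHBA and KIT to GDF9 overlapped between the library types too. These ranges were not set against those of all genes. BMP6 went the other way, at 3.41 ± 0.33 (adjusted p = 2.84e-09), from 2.89 to 4.47 over the 24 settings. Its counts were 0.0143 to 0.213 of those of GDF9 in single oocytes and 0.000617 to 0.0104 in pools, likewise not set against all genes.

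GDF9 at -1.37 ± 0.20, INHBA at -1.31 ± 0.20, BMP15 at -0.99 ± 0.29 and KIT at -0.91 ± 0.27 were lower too, but their call rested on the scaling. Without the 2 dominant rows GDF9 stood at -0.33 and INHBA at -0.23 and neither passed, while BMP15 stood at 0.01 and KIT at 0.13. Relative to the median of all genes under the same setting, GDF9 stayed at -1.55 to -1.20, BMP15 at -1.22 to -0.80, INHBA at -1.49 to -0.99 and KIT at -1.25 to -0.75. TGFBR1 stood at -0.02 ± 0.46, with an interval of -0.97 to 0.93, but at 1.06 without the 2 dominant rows, where it passed (adjusted p = 0.0405).

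**Figure D5:**
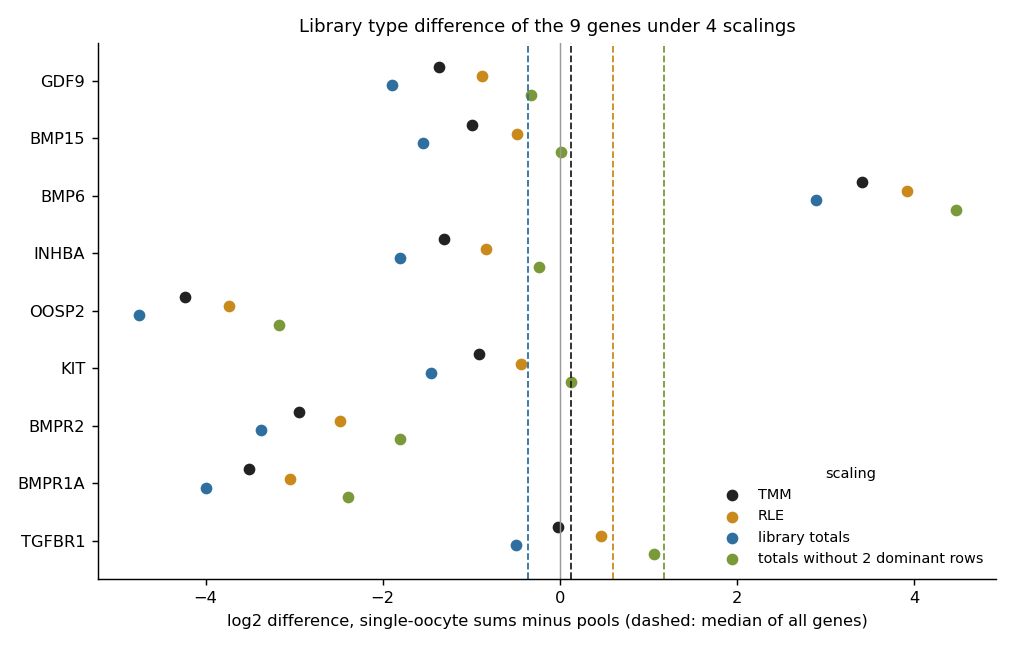
Log2 difference, single-oocyte sums minus pools, of each gene under 4 scalings, with the median of all genes under each as a dashed line. BMP6 lies right of every median, OOSP2, BMPR2 and BMPR1A lie at or left of -1.81, and BMP15 and KIT cross 0 under totals without the 2 dominant rows.

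The partners of these genes were read from 11 lists of ligands, receptors, SMADs, antagonists, processing enzymes, regulators, targets, KIT signalling, other secreted factors, transcription factors and cumulus target genes. In pools 65 of their genes were tested and 0 called between the states, with a median log2 difference of 0.06. In the sums 62 were tested and 0 called, with a median of -0.11. At an unadjusted p under 0.05 stood 1 gene in each, AKT2 in pools and ACVR1 in the sums. AKT2, a kinase downstream of KIT, averaged 18.6 ± 7.01 CPM in deficient, against 37.3 ± 14.4 CPM in normal pools, a difference of -1.005 ± 0.33 (unadjusted p = 0.00765, adjusted p = 0.809).

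ACVR1, a type I receptor (ALK2), stood at opposite sides in the library types. It averaged 22.8 ± 7.11 CPM in deficient, against 14.7 ± 4.17 CPM in normal pools, but 16.1 ± 7.63 CPM in deficient, against 25.8 ± 10.5 CPM in normal single oocytes. The log2 difference was -0.70 ± 0.29 in the sums and 0.63 ± 0.30 in pools, and the test of their difference gave -1.34 ± 0.48 (unadjusted p = 0.00940, adjusted p = 0.886). TRAF6, an adaptor of TGF-beta signalling outside the SMADs, stood at 0.66 ± 0.32 in pools and 0.78 ± 0.43 in the sums, neither past the threshold. Other genes of small p were FIGLA and TGFBRAP1 in pools, at -1.87 ± 0.93 and -1.05 ± 0.59, and USP9X, FURIN, TGFBR3 and SOS1 in the sums, at 0.58 ± 0.29, -0.44 ± 0.24, 1.02 ± 0.70 and 0.40 ± 0.34.

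The partners of highest CPM did not pass either. In pools these included GAB1, an adaptor of KIT, SMURF2, a ubiquitin ligase that acts on SMADs and receptors, FKBP1A, which binds type I receptors, and the oocyte transcription factors LHX8 and OTX2. LHX8 averaged 463 ± 41.2 CPM in deficient, against 469 ± 59.0 CPM in normal pools, a difference of -0.02 ± 0.16, and GAB1 677 ± 160 CPM in deficient pools, against 623 ± 126 CPM in normal ones. In single oocytes OTX2, ACVR1B, FURIN, GDF1 and GAB1 were among those of highest CPM. ACVR1B, the type I receptor of activin (ALK4), averaged 177 ± 48.8 CPM in deficient, against 188 ± 43.7 CPM in normal oocytes, and FURIN, an enzyme that cuts the precursors, 151 ± 89.2 CPM in deficient oocytes, against 204 ± 73.0 CPM in normal ones. GDF1, another ligand of the superfamily, stood at 46.4 to 233 CPM in deficient and 81.5 to 158 CPM in normal single oocytes, while it had no count in any of the 11 pools, whose depth allows up to 0.0928 to 0.273 CPM.

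By library type, the lists are given as counts, to be read against the 35.2% of all genes called higher and 32.5% called lower, and no difference between lists was tested. Under RLE those shares were 42.1% and 26.1%, under totals 27.8% and 38.2%, and under totals without the 2 dominant rows 49.8% and 18%. Counts under each scaling are to be read against its own shares. Of 15 regulators of SMAD signalling, 3 were higher in single-oocyte sums and 11 lower, with a median of -1.50, and 3 and 9, 3 and 12, or 4 and 7 under RLE, totals, or totals without the 2 dominant rows. Of the other 9 receptors and coreceptors tested 5 were higher and 1 lower, with a median of 0.59. BMPR2 and BMPR1A, at -2.95 and -3.51, stood below that median, as did ACVR2A, the 1 lower receptor, at -3.49. The other 9 receptors and coreceptors split 7 and 1, 3 and 2, or 8 and 1 under the same other scalings. All 3 processing enzymes tested were higher, with 2 of them past the threshold under totals. SMADs split into 2 higher and 3 lower of 6. Without the 2 dominant rows they split 3 and 0, against 49.8% higher and 18% lower of all genes. KIT signalling genes split into 7 higher and 7 lower of 14. Under totals they split 3 and 7, against 27.8% and 38.2%, and without the 2 dominant rows 7 and 4, against 49.8% and 18%.

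The genes whose levels ran closest to a member over the 11 pools were sought among 6354 genes with a mean of at least 10 CPM, by Spearman's rho and as a description only. For GDF9 they included NISCH at 0.964 and ATP6V1C2 at 0.955. For BMP15 they were IGF2R at 0.991, and ATP6V1C2 and LOC100511891 at 0.982, so that ATP6V1C2 stood in both sets. Over the 29 single oocytes the rho was lower in each of these pairs, 0.678 for BMP15 with IGF2R and 0.234 to 0.421 for the other 4. The pools share their depth and composition with every gene in them, and no p is given. Closest to OOSP2 was SOX4 at 0.909, to KIT UBASH3B and LOC102159681 at 0.891, to INHBA LOC106506794 at 0.900, to BMPR2 CCNYL1 at 0.909 and to BMPR1A TMF1 at 0.936. Over single oocytes those 6 pairs stood at 0.0626, 0.0153, -0.398, -0.448, 0.455 and -0.0360.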

How the data were processed

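The authors deposited whole-number counts per gene, without normalization, in one table of pools and another of single oocytes, each with 38795 rows. Per the labels' protocols, pools were extracted with a PicoPure kit and amplified by SPIA, single oocytes were processed in the tube with a SoLo kit and pig-specific depletion primers, and reads were 100 bp, paired-end. The submitters' processing notes name FastQC, Trim Galore, TopHat2 2.0.14, edgeR and build Sscrofa10.2; the counting program and strand setting are not stated there, so reads of a member and of a gene antisense to it are not separable. No transcript lengths were given, so count ratios of 2 genes and orders of genes by CPM are not corrected for length. The row naming no gene (1.05% to 4.75% of counts in pools, 0.648% to 8.15% in single oocytes) was left out.

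Each table was fitted whole in R 4.3.3 with edgeR 4.0.16 (default filter, TMM, quasi-likelihood test, Benjamini-Hochberg over all genes tested, threshold 0.05). Single oocytes were summed by state and first title number into 4 deficient sums (2, 2, 3 and 7 oocytes) and 3 normal sums (4, 4 and 7). State by library type, and library type itself, were tested over 11 pools and 7 sums. DESeq2 1.42.0, limma-voom (limma 3.58.1), other scalings, no filter, blocks, left-out replicates and each oocyte as a sample were alternatives. A fit with title number and date as terms, and the fits between dates (each oocyte, or sums by state, number and date), were added after the data were seen. Ratios were compared by exact permutation tests, and correlations over pools by permutation with 100000 resamples on log2(CPM + 1). The state tests of pools and of sums were also run on simulated counts with 200 changed genes. Those counts were drawn independently, without links by pool name, title number or date, so they do not bear on such links. Limits given for a count of 0 rest on 3 counts and cover counting error only.

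Same-numbered sums deviated together (r of 0.236 to 0.337 for the 3 shared numbers, -0.247 to 0.0424 for other pairs), so the numbers may pair sums. The main comparison of the sums did not use this pairing. Its differences, standard errors and intervals are unpaired, and the block on title number was an alternative only. The pairing was read from the data, as the labels do not state what a number marks, and numbers 2 and 3 each fall on 1 date. No pair of libraries of a group agreed within sampling noise (chi-square per degree of freedom of at least 35.0 in pools and 4.09 in single oocytes). The labels tie no library to an animal, so a p-value reflects only the spread among libraries or sums, which may be technical. The design text speaks of 5 pools a group, while 6 normal pools are labelled. The members, lists and tests were chosen with earlier results of these data known. The text names all 9 members, the 6 most abundant listed genes of each table, the 6 of smallest p in each state comparison, and for members at 10 CPM or more up to 3 genes of highest rho over pools; a few genes that this rule takes are not reported here.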

Additional observations from a re-analysis of the deposited data

Results flagged for a closer look

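Of 30 groups of 4 to 6 pools or sums examined (9 genes and the BMP15 to GDF9 ratio), 4 held a sample far from the others. A rate of about 1 in 20 groups holds for independent groups of normally distributed values. The groups here reuse the same pools and sums, on values that were not logged, so 4 of 30 cannot be read against that rate. OOSP2 stood at 2278 CPM in deficient pool B4, where the next highest deficient pool stood at 1164 CPM. BMPR2 stood at 1051 CPM in deficient pool A2, where the next stood at 577 CPM, and at 1105 CPM in normal pool A3, where the next stood at 633 CPM. TGFBR1 stood at 3.98 CPM in deficient sum 1, on 13 counts of 2 oocytes, where the next sum stood at 2.25 CPM.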

How the results depend on the processing

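None of the 9 genes passed the test between states, or in its difference between library types, under any alternative run, and no left-out pool or sum gave a called gene in either state comparison. The number of called genes moved from 0 to 28 in pools under DESeq2. In single oocytes it moved to 2 under DESeq2, 4 with no filter, 2 with title number as a replicate block, 1 with each oocyte as a sample, 2 with the oocytes of 17 September alone and 3 with title number and date as terms. For state by library type it moved to 3 with each oocyte as a sample. In each case the cause was not tested. Few counts stand behind TGFBR1 in single oocytes, 0 to 14 in each, and behind the lowest BMP6 value in pools, 9.

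Differences near 0 changed sign. In pools, the replicate block on pool name gave -0.16 for GDF9, -0.25 for BMP15 and -0.12 for BMPR2, with no other call changed. The data did not settle whether equal names pair pools. The r of 4 same-named pairs ran from -0.273 to 0.754 (median 0.263), and that of 26 other pairs from -0.552 to 0.584 (median -0.0317). The same 8 pools without the block gave -0.13, -0.21, -0.11 and, for BMP6, 0.030. BMPR2 stood at -0.011 under limma-voom and -0.019 with no filter. Pools named A gave 0.0017 for INHBA and -0.045 for BMPR2, and pools named B 0.12 for BMP6, -0.11 for BMPR2 and -0.30 for BMPR1A. In the sums, BMP15 stood at 0.0035 under DESeq2 and 0.0037 under RLE, and BMP6 at -0.0093 under limma-voom. The block on title number gave 0.017 for GDF9 and 0.048 for BMP15, and the same sums unblocked 0.012 and 0.071. Each oocyte as a sample gave 0.014 for BMP15 and -0.057 for BMP6. The oocytes of 17 September gave -0.00012 for BMP6 and -0.15 for KIT, and those of 22 September 0.32, 0.22 and -0.14 for GDF9, BMP15 and BMP6.

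Leaving out 1 pool or sum gave, for state in pools, -0.10 to 0.25 for GDF9 and -0.069 to 0.52 for BMP15 (both below 0 only without deficient pool B2), -0.53 to 0.18 for BMP6, -0.15 to 0.20 for BMPR1A and -0.30 to 0.27 for BMPR2. For the sums it gave -0.17 to 0.012 for GDF9, -0.13 to 0.10 for BMP15, -0.12 to 0.22 for BMP6, -0.065 to 0.44 for BMPR2 and -0.079 to 0.71 for KIT. For state by library type it gave -0.35 to 0.018 for GDF9, -0.57 to 0.036 for BMP15, -0.14 to 0.62 for BMP6, -0.10 to 0.47 for BMPR2 and -0.58 to 0.20 for KIT. The log2 ratio of BMP15 to GDF9 differed by -0.025 to 0.23 in pools and by -0.10 to 0.21 in the sums.

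Between library types, RLE left BMP15 at -0.49 and KIT at -0.44, not past the threshold, and TGFBR1 at 0.47. Without the rows RN18S and LOC102158401, BMP15 stood at 0.014 and KIT at 0.13, not past the threshold, and TGFBR1 at 1.06, past it (adjusted p = 0.0405). With normal libraries only, BMP15 at -0.93 and KIT at -0.88 did not pass and TGFBR1 stood at 0.26; with deficient libraries only, KIT at -0.81 did not pass, in both cases with fewer libraries. Left-out libraries gave -0.15 to 0.17 for TGFBR1 and 11464 to 12055 called genes.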
